A study of Mus musculus with 2 samples.

Results

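The respiratory chain genes of the nuclear genome were taken from the gene table by symbol, as every protein-coding gene whose name starts with Nduf, Sdha to Sdhd, Uqcr, Atp5 or Cox4 to Cox8 in the GENCODE annotation of GRCm38. The rule found 97 of 46983 genes. Of these, 36 encode subunits of complex I, 4 of complex II, 8 of complex III, 20 of complex IV and 17 of complex V or proteins named with them, while the remaining 12 (Ndufaf and Sdhaf genes) encode assembly factors, which help to build complexes I and II without being part of them. Ndufa4 and its paralogue Ndufa4l2 were counted with complex IV, where the NDUFA4 protein resides despite its name. The counts came from 2 RNA sequencing libraries of mouse 46C embryonic stem cells, grown on feeder cells in serum with LIF. In 1 library the cells carried an shRNA (a hairpin RNA that silences its target) directed at linc1557, a long noncoding RNA; in the other they carried a control shRNA. For both, pLKO.1-TRC virus-infected cells had been selected with puromycin and stably infected clones picked; how many clones went into a library was not stated. With 1 library per group there was no replicate, no test and no p-value, and every interval below is a 95% interval of counting error alone. No gene in the table was matched to linc1557, so the knockdown itself was not checked here.

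The respiratory chain sits in the inner mitochondrial membrane. Complex I takes electrons from NADH and complex II from succinate, ubiquinone carries them to complex III, cytochrome c to complex IV, and complex IV passes them to oxygen. Complexes I, III and IV pump protons, and complex V, the ATP synthase, uses the proton gradient to make ATP. Most subunits are encoded in the nucleus and imported, but a core set of complexes I, III, IV and V is made from the mitochondrial genome. Naive embryonic stem cells are known to use both glycolysis and respiration, and their balance shifts as they leave the naive state.

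Counts totalled 26693282 for the knockdown and 23146210 for the control. Genes were compared if they had at least 1 CPM (counts scaled by library size and TMM factor) in 1 library or both, and 93 of the 97 respiratory chain genes did so. Their counts had a lowest value of 29, a median of 1222 and a highest value of 21384 in the knockdown library, against 12, 893 and 21557 in the control library. The genes together took 0.658% (0.655 to 0.661) of the knockdown counts and 0.611% (0.608 to 0.614) of those of the control, with Wilson intervals. None of the 97 genes lies on chromosome 14. Cell type markers differed between the libraries. Of 26 feeder fibroblast markers, 16 were at least 2-fold lower in the knockdown library, and the 26 summed to 2069 against 3569 CPM, with none at 0 in either library. The 10 embryonic stem cell markers summed to 2781 CPM with knockdown and 2074 CPM in control cells, with a median log2 ratio of 0.37 and none at 2-fold. Of 6 heart and skeletal muscle markers, 4 entered and all 4 were called lower; the 6 summed to 65 against 361 counts. The 6 macrophage markers went both ways, with 1 higher and 3 lower and a sum of 34.0 against 40.3 CPM. Lower counts of a gene can come from fewer cells of a type or from less RNA per cell, and these cannot be told apart in bulk libraries. The part of these marker differences in the results on the respiratory chain was not tested.

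Most respiratory chain genes lay slightly higher in the knockdown library, and few differed by much. Of the 93 genes that entered, 77 had a log2 ratio, knockdown over control, above 0 (82.8%), against 51.9% of all 15850 genes that entered. The median log2 ratio was 0.27, with quartiles of 0.15 and 0.44, whereas all genes had a median of 0.02 with quartiles of -0.35 and 0.33. The whole range ran from -0.52 for Atp5g2 to 1.25 for Ndufa4l2, and 91 of the 93 genes differed by less than 2-fold. A call required a difference of 2-fold or more with an exact (Clopper-Pearson) interval that left out 1. By that rule 2 genes were higher, against 4.68% of all genes and 4.15% of nuclear protein-coding genes. None was lower, against 9.48% of all genes and 10.3% of nuclear protein-coding genes. At 1.5-fold, 10 were higher (10.8%), against 11.5% of all genes, and none was lower, against 16.4% of all genes. The number at 1.5-fold in either direction was 5 with total-count scaling and 15 with DESeq2 size factors. With total-count scaling it included a decrease, that of Atp5g2 with a log2 ratio of -0.64. No decrease of 2-fold was called. With no minimum fold, the interval lay above 1 for 65 genes (69.9%), against 32.8% of all genes, and below 1 for 5 genes (5.38%), against 31.2%. These last shares also depend on depth, since the respiratory chain genes have higher counts, and thus narrower intervals, than the median gene, which had 336 and 325 counts. The median of the 93 genes stayed between 0.21 and 0.27 above that of all genes under each scaling, centring and filter tried. Scaling by total counts alone moved the median of all genes by -0.12, so small ratios are read relative to that of all genes.

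**Figure D1:**
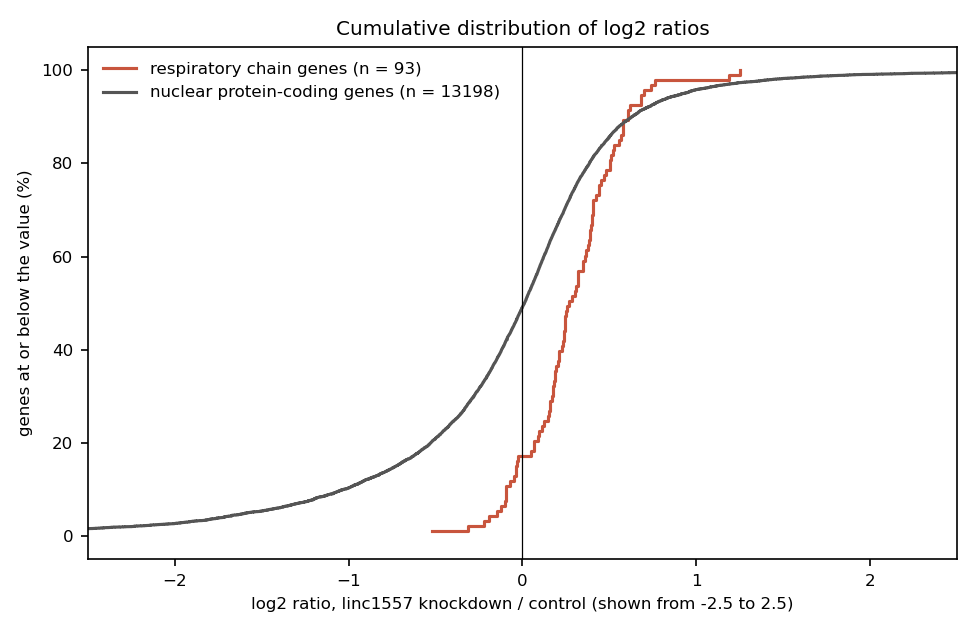
Cumulative distribution of log2 ratios, linc1557 knockdown over control, for the 93 respiratory chain genes that entered and for 13198 nuclear protein-coding genes. The respiratory chain curve starts at -0.52, with 82.8% of its genes above 0 against 50.8% of the nuclear protein-coding genes.

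All complexes had medians on the same side. The median log2 ratio was 0.25 for complex I, 0.38 for complex II, 0.21 for complex III, 0.35 for complex IV, 0.24 for complex V and 0.34 for the assembly factors. Their ranges overlapped, and the difference between complexes is small beside the spread of genes within 1 complex (SD of 0.25 in complex I and 0.37 in complex IV). Summed counts were also higher with knockdown in every complex. The same normalised ratio was 1.014 (1.013 to 1.015) for the sum of nuclear protein-coding genes. For the sum of all genes it was 1.085 (1.085 to 1.086), close to that of complex V below. That last value is fixed by the TMM factors and is no background. Complex II totalled 7246 against 5317 counts, a normalised ratio of 1.28 (1.24 to 1.33). Complex IV totalled 37545 against 27999 counts, with a ratio of 1.26 (1.24 to 1.28). For complex I the sums were 39777 and 31330 counts and the ratio 1.20 (1.18 to 1.21), and for complex III they were 15537 and 12233 counts and the ratio 1.20 (1.17 to 1.22). Complex V had the lowest ratio, 1.10 (1.09 to 1.11), from 71835 against 61611 counts. Its sum is dominated by the F1 genes Atp5a1 and Atp5b, which together with the other F1 genes held 48961 of its counts with knockdown and 43180 in control cells. Assembly factors summed to 3759 against 2962 counts with a ratio of 1.19 (1.14 to 1.25).

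**Figure D2:**
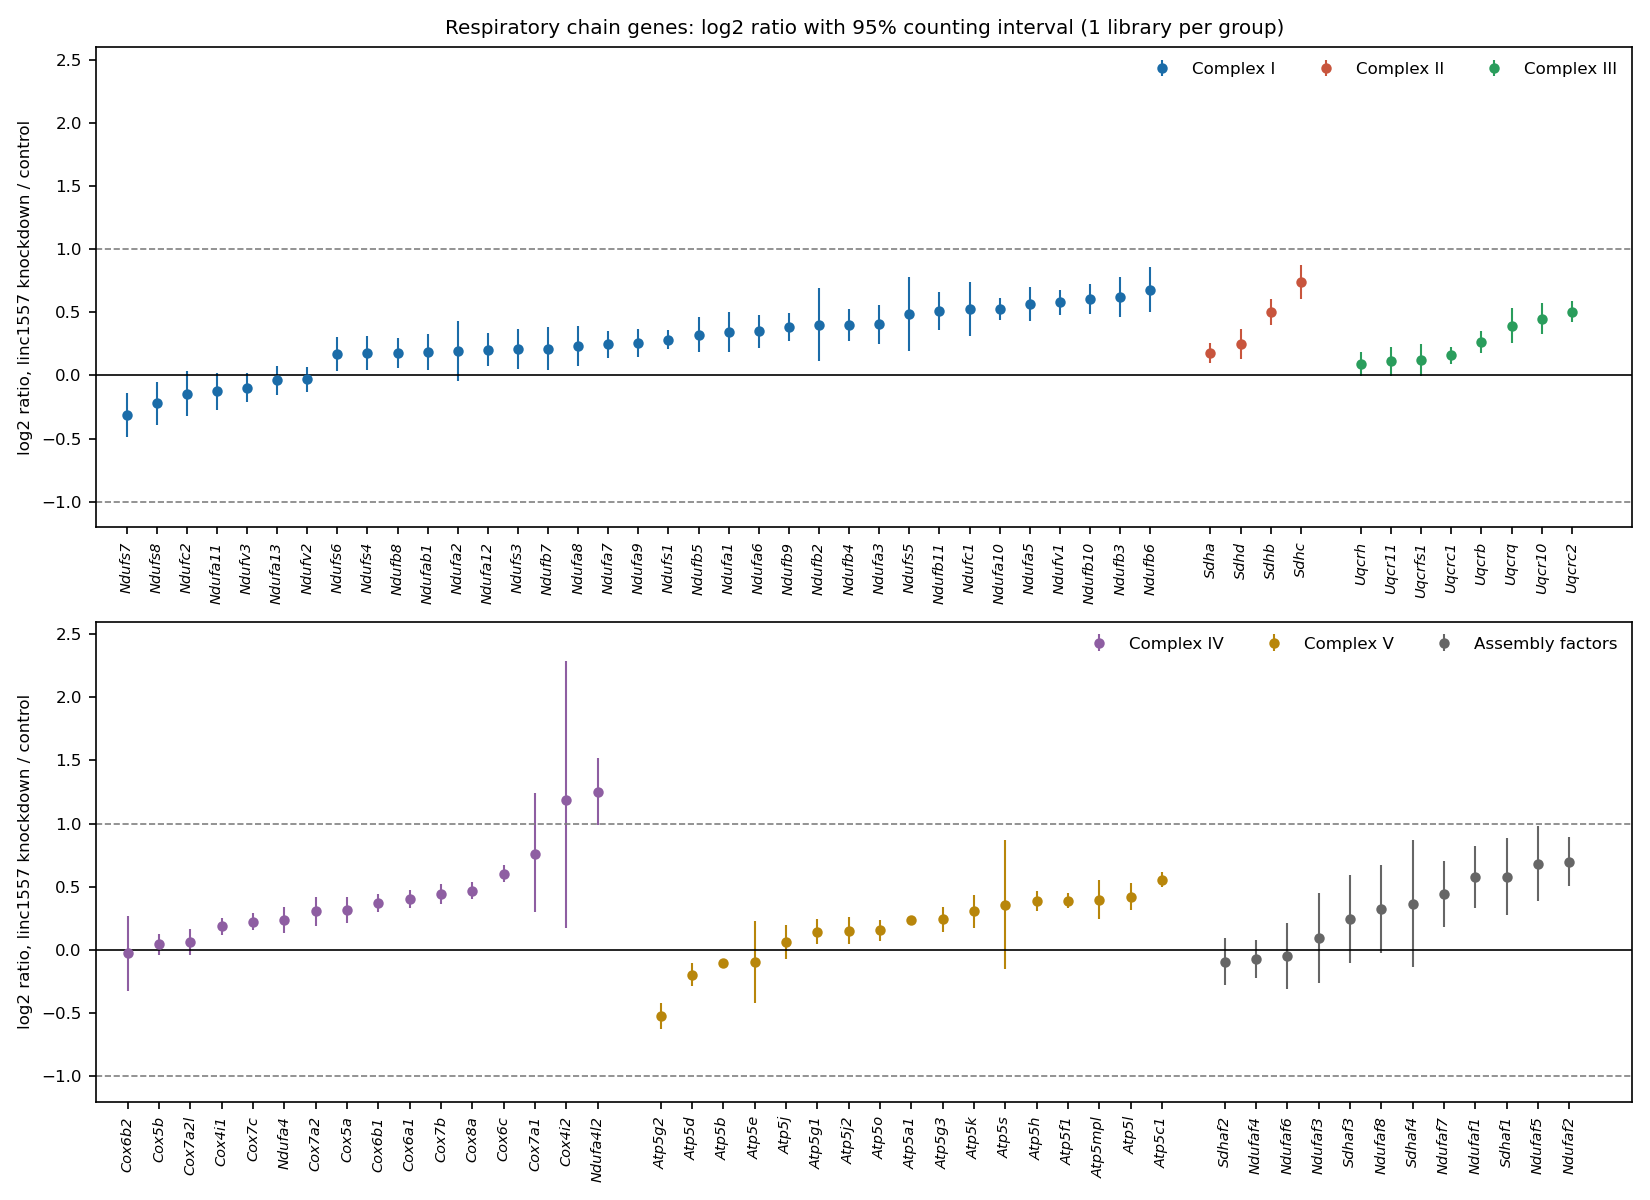
Log2 ratio of the genes that entered and are reported singly, linc1557 knockdown over control, sorted within each complex; bars are exact 95% counting intervals and dashed lines mark 2-fold. Most points lie above 0, and only Cox4i2 and Ndufa4l2 pass the upper dashed line.

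Complex I, the NADH dehydrogenase, had no gene past 2-fold. Its 36 genes ranged from -0.31 for Ndufs7 to 0.68 for Ndufb6, with 28 above 0 and 8 below. Grouped by role after their values were seen, the 7 core subunits that carry the flavin and most of the iron-sulfur clusters or line the path to ubiquinone had a median of -0.03, and 3 of the 7 were above 0. With DESeq2 size factors that median was 0.01 and 5 of the 7 were above 0. The 10 Ndufb genes, which encode accessory subunits of the membrane arm, had a median of 0.40, and all 10 were above 0 under every scaling tried. The other 19 accessory subunits lay between, with a median of 0.23. Ndufs7, which carries the last iron-sulfur cluster before ubiquinone, had 513 counts with knockdown and 599 in control cells, a ratio of 0.806 (0.715 to 0.908). Ndufs8, another iron-sulfur subunit, had 555 against 609 counts and a ratio of 0.858 (0.763 to 0.964). Both intervals lie below 1, but centring by GC content gave Ndufs7 a log2 ratio of -0.15 in place of -0.31, and its interval moved by as much would include 1. Cox4i1, with a GC content of 57.8% against 57.0% for Ndufs8, moved from 0.19 to 0.30 under that centring. The interval of Ndufs8 moved by as much would also include 1. Ndufv2 had a log2 ratio of -0.03, with an interval that included 1. The flavin-binding subunit gene Ndufv1 went the other way, with 2156 against 1357 counts and a log2 ratio of 0.58 (0.48 to 0.68). It was thus the core gene with the widest difference, and core genes lay on both sides of 0. Among the Ndufb genes, Ndufb6 had 679 against 399 counts and a ratio of 1.60 (1.41 to 1.82). Ndufb3, with 866 against 530 counts, had a ratio of 1.54 (1.38 to 1.72). Ndufb10 followed with 1498 against 926 counts and 1.52 (1.40 to 1.65). These 3 were the only complex I genes at 1.5-fold. Ndufb6 overlaps exons of Smim27 on the opposite strand over 257 bases (39.0% of its exon bases), but that gene had only 23 and 25 counts.

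By the deposited lengths the highest levels within complex I, compared per length in TPM (transcripts scaled to library size and gene length), were those of Ndufb9, Ndufa6 and Ndufa1, small accessory subunits. Ndufb9 had 103 TPM with knockdown and 88.6 TPM in control cells. Ndufa6 had 88.0 against 77.6 TPM, and Ndufa1, which is X-linked, 79.1 against 70.0 TPM. With principal transcript lengths Ndufa7 was highest, at 124 TPM with knockdown and 117 TPM in control cells. At the low end by deposited length stood Ndufb2 with 1.86 against 1.59 TPM. The deposited length of Ndufb2, 5628 bases, is that of all its exons in the GENCODE annotation, so its level per length is an underestimate if the long exons are little used. This match does not hold for every gene, since Cox5a has a deposited length of 690 against 2101 exon bases.

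Complex II, succinate dehydrogenase, links the tricarboxylic acid cycle to the chain and is wholly encoded in the nucleus. Its 4 genes all had intervals above 1. With total-count scaling the log2 ratio of Sdha was 0.06 in place of 0.18, and its interval moved by as much would include 1. Sdhc, a membrane anchor that binds ubiquinone and haem (ENSMUSG00000058076, chromosome 1 from 171127165 to 171150603), had 1254 counts with knockdown and 706 in control cells. Its ratio of 1.67 (1.52 to 1.84) was the highest among subunits that are not tissue- or condition-restricted. Sdhb, the iron-sulfur subunit, had 1885 against 1251 counts and a ratio of 1.42 (1.32 to 1.52). Sdhd, the other anchor, had 1277 against 1011 counts (1.19, 1.09 to 1.29), and Sdha, the flavoprotein that oxidises succinate, 2830 against 2349 counts (1.13, 1.07 to 1.20). By the deposited lengths, the order in the knockdown library was Sdhd with 43.1 TPM, Sdhb with 36.6, Sdha with 31.7 and Sdhc with 16.8. In the control library it was Sdhd with 40.8 TPM, Sdha with 31.4, Sdhb with 29.0 and Sdhc with 11.3. With principal transcript lengths Sdhb was highest in both, at 63.6 TPM with knockdown and 50.1 TPM in control cells. Sdhd then had 39.95 against 37.6 TPM and Sdha 37.6 against 37.1 TPM, so the order depends on the length used. Sdhc had the lowest level by either length and the widest difference of the 4.

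Complex III, the cytochrome bc1 complex, showed the narrowest spread, from 0.09 for Uqcrh to 0.50 for Uqcrc2 (SD 0.17). All 8 genes lay above 0, but Uqcr11 and Uqcrh were below 0 when libraries were scaled by total counts. The interval lay above 1 for 5 of them. Uqcrc2, a core protein on the matrix side, had 2975 against 1975 counts and a log2 ratio of 0.50 (0.42 to 0.59). Uqcr10 had 1284 against 885 counts and a ratio of 1.37 (1.25 to 1.49). The iron-sulfur (Rieske) subunit gene Uqcrfs1 had 1064 against 920 counts, and its ratio of 1.09 (0.996 to 1.19) was not distinguishable from 1 at this depth and scaling. With DESeq2 size factors that interval would lie just above 1. Uqcrb had the highest level of the complex, 119 TPM with knockdown and 111 TPM in control cells.

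**Figure D3:**
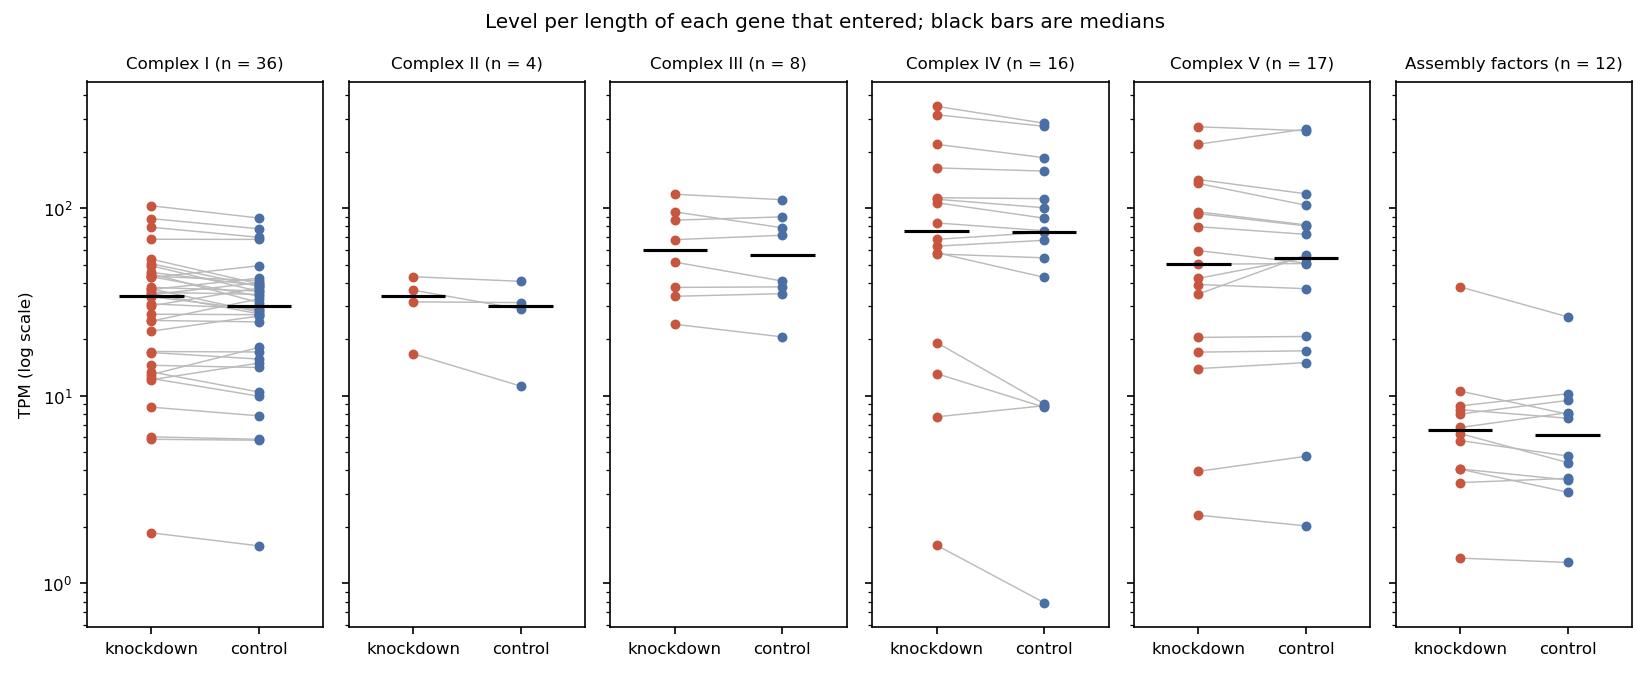
Level per length (TPM, log axis) of each gene that entered, in the knockdown (left) and control (right) library, by complex; lines join the same gene and black bars are medians. By the deposited lengths plotted, complex IV has the highest median in each library and assembly factors the lowest, 6.53 TPM with knockdown and 6.18 TPM in control cells.

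Complex IV, cytochrome c oxidase, held both genes called at 2-fold and, by the deposited lengths, the most abundant respiratory chain transcripts. With principal transcript lengths Atp5b of complex V ranked 1 and Cox8a 4. Cox8a had 349 TPM with knockdown and 284 TPM in control cells, Cox6b1 315 against 273 TPM and Cox6a1 219 against 186 TPM. Their ratios of normalised counts were 1.38 (1.32 to 1.45), 1.30 (1.23 to 1.36) and 1.32 (1.26 to 1.39). Among the 12 genes that are expressed in most tissues, all had log2 ratios above 0, from 0.05 for Cox5b to 0.61 for Cox6c, with a median of 0.31. Cox5b and Cox7a2l were below 0 when scaled by total counts, and Cox5b also when centred by gene length, expression level or GC content. Cox6c, an accessory subunit, had 4756 against 2943 counts and a ratio of 1.52 (1.45 to 1.59). Its exons overlap those of Vps13b on the opposite strand over 250 bases. Cox7a2l, a factor that joins complexes III and IV into supercomplexes, had 1657 against 1490 counts and a ratio of 1.05 (0.975 to 1.12).

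Several complex IV subunits have a second gene for particular tissues or low oxygen. Ndufa4l2 is induced by hypoxia-inducible factors and is the paralogue of Ndufa4 (ENSMUSG00000040280, chromosome 10 from 127514967 to 127517154). It had 425 counts with knockdown and 168 in control cells, a 2.38-fold higher level (1.99 to 2.86). Ndufa4 itself had 1812 against 1447 counts, a ratio of 1.18 (1.10 to 1.26). By the deposited lengths, Ndufa4l2 made up 25.2% of the summed TPM of both genes with knockdown and 14.3% in control cells. With principal transcript lengths these shares were smaller. Ndufa4l2 then had 17.5 TPM beside 131 TPM for Ndufa4 with knockdown, and 8.23 beside 125 TPM in control cells. A neighbour on the opposite strand, Shmt2, shares 32 exon bases with Ndufa4l2 and had 5018 against 3064 counts, and whether shared reads were assigned to either gene is not known. Cox4i2, the isoform of Cox4i1 known from lung and from low oxygen (ENSMUSG00000009876, chromosome 2 from 152754173 to 152765037), had 29 against 12 counts. It was 2.27-fold higher in the knockdown library, with a wide interval (1.13 to 4.89). Cox4i1 had 4058 against 3357 counts and a ratio of 1.14 (1.09 to 1.19). By the deposited lengths Cox4i2 made up 1.39% of the summed TPM of the pair with knockdown and 0.698% in control cells. The shares were again smaller with principal transcript lengths. Cox4i2 then had 1.53 TPM beside 207 TPM for Cox4i1 with knockdown, and 0.752 beside 203 TPM in control cells. Cox4i2 does not enter with a minimum of 5 CPM. Of 25 other symbols of hypoxia-induced genes, a list chosen after these values were seen, 24 were in the table and 23 entered. Among them 1 was called higher, Ndrg1 with 886 against 392 counts, and none was called lower. At 1.5-fold, 7 of the 23 were higher (30.4%), against 11.5% of all genes, and 1 was lower. These 7 included Pdk1, which restrains pyruvate dehydrogenase, with 9242 against 4389 counts and Hk2, a hexokinase, with 12389 against 6722 counts. The 1 gene at 1.5-fold lower was Bnip3l, with 1340 against 2273 counts. The median log2 ratio of the 23 was 0.21, with quartiles of 0.00 and 0.65, and 17 lay above 0 and 6 below. Summed over the 24 genes the normalised ratio was 1.06 (1.05 to 1.07), against 1.014 (1.013 to 1.015) for the sum of nuclear protein-coding genes. The value for the sum of all genes, 1.085, is fixed by the TMM factors and is no background for a list.

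The isoforms of heart, muscle or testis were low or at 0 counts. Cox7a1, the heart and muscle isoform, had 110 against 61 counts and a ratio of 1.70 (1.23 to 2.36), under the 2-fold limit, while Cox7a2 had 1448 against 1102 counts and 1.24 (1.14 to 1.34). Cox6b2, known from testis, had 197 against 189 counts and a ratio of 0.981 (0.799 to 1.20). It was the only complex IV gene that entered with a log2 ratio below 0, and it was above 0 with DESeq2 size factors or after centring by expression level or GC content. Cox6a2 had 8 against 4 counts, Cox7b2 2 against 5 and Cox8c 3 against 1. Cox8b had 0 counts in both libraries, which allows up to 0.117 CPM with knockdown and 0.124 CPM in control cells, at 3 counts each. These 4 genes did not enter, and no fold is given for them. Their partners Cox6a1, Cox7b and Cox8a had between 2070 and 4379 counts in either library.

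**Figure D4:**
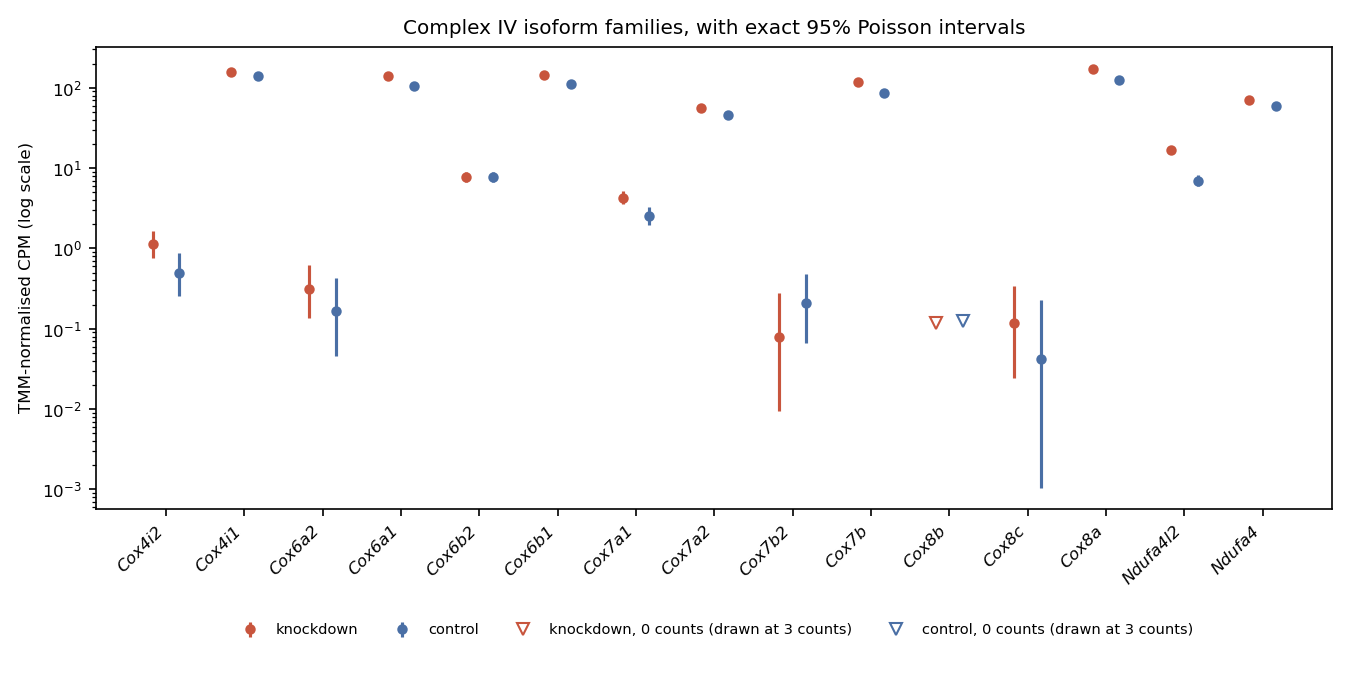
TMM-normalised CPM (log axis) of the complex IV isoform families in the knockdown (left of each pair) and control library, with exact 95% Poisson intervals; open triangles stand for 0 counts drawn at 3 counts. Cox4i2 and Ndufa4l2 are higher in the knockdown library, at 1.13 and 16.6 CPM against 0.498 and 6.97 CPM.

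Complex V, the ATP synthase, contained the respiratory chain gene with the lowest log2 ratio. Its subunit c, which forms the rotating ring in the membrane, is made from 3 genes that encode the same mature protein with different import sequences. Atp5g2 (ENSMUSG00000062683, chromosome 15 from 102662864 to 102672352) had 1344 counts with knockdown and 1816 in control cells, a ratio of 0.697 (0.649 to 0.748). The other two did not share this direction. Atp5g1 had 1933 against 1644 counts and a ratio of 1.11 (1.04 to 1.18), and Atp5g3 had 1967 against 1565 counts and 1.18 (1.11 to 1.27). In sum the 3 genes had 5244 against 5025 counts and a ratio of 0.982 (0.945 to 1.02), not distinguishable from 1 at this depth and scaling. With total-count scaling that interval would lie below 1. Their shares of the summed TPM differed, with 38.2% for Atp5g2, 43.0% for Atp5g3 and 18.8% for Atp5g1 in the knockdown library, against 50.7%, 33.6% and 15.7% in the control library. With the length of the principal transcript in place of the deposited length, Atp5g2 had 88.3 TPM with knockdown and 142 TPM in control cells. Atp5g3 then had 105 against 99.6 TPM, so the order of the pair was again reversed between the libraries. Since their coding stretches are alike and processed copies exist, how reads were shared out among them is uncertain.

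The F1 part of the synthase, which makes ATP, also went both ways. Atp5a1 and Atp5b encode its alpha and beta subunits, which are present in equal number. Atp5a1 had 19590 against 15627 counts and a ratio of 1.18 (1.16 to 1.21), while Atp5b had 21384 against 21557 counts and a ratio of 0.934 (0.916 to 0.952). The gamma subunit gene Atp5c1, the central shaft, had 5951 against 3813 counts and a ratio of 1.47 (1.41 to 1.53), the highest of the complex. Atp5d, the delta subunit, had 1876 against 2022 counts and a ratio of 0.873 (0.820 to 0.930). Its GC content of 60.2% is close to that of Ndufs7 (60.1%). Moved as far as GC centring moved Ndufs7, the interval of Atp5d would include 1. In contrast, the 4 genes of the peripheral stalk (Atp5f1, Atp5h, Atp5j and Atp5o) had a median of 0.27, and the 4 of the small membrane subunits (Atp5j2, Atp5k, Atp5l and Atp5mpl) a median of 0.35. All 8 lay above 0, but Atp5j was below 0 when scaled by total counts or centred by expression level. By the deposited lengths Atp5a1, Atp5b and Atp5l had the highest levels, with 271, 219 and 142 TPM in the knockdown and 259, 264 and 119 TPM in the control library. Atp5b was thus the more abundant of the alpha and beta pair in the control library and the less abundant in the knockdown library. With principal transcript lengths Atp5b was above Atp5a1 in both, at 430 against 305 TPM in the knockdown and 515 against 289 TPM in the control library, so the order of these 2 genes depends on the length used. Atp5l, at 118 against 98.8 TPM, then stood below Atp5h, at 189 against 162 TPM, and Atp5c1, at 197 against 150 TPM.

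The 12 assembly factors had much lower levels than the subunits. Ndufaf2 was the exception, with 38.1 TPM with knockdown and 26.4 TPM in control cells, while the other 11 lay between 1.36 and 10.6 TPM in the knockdown and between 1.29 and 10.3 TPM in the control library. Ndufaf2, which binds a late intermediate of complex I, had 595 against 345 counts and a ratio of 1.62 (1.42 to 1.86). Ndufaf5, known in human cells to hydroxylate the Ndufs7 protein, had 259 against 152 counts and a ratio of 1.60 (1.31 to 1.97). Ndufaf1, which acts on the membrane arm, had 366 against 231 counts (1.49, 1.26 to 1.77), and Ndufaf6 251 against 244 counts (0.968, 0.809 to 1.16). Sdhaf2, needed to attach flavin to Sdha, had the lowest ratio, 0.937 (0.825 to 1.07), from 483 against 485 counts. For 7 of the 12 the interval included 1.

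Levels per length spanned a wide range within each complex although the proteins assemble in fixed proportions. Complex I ran from 1.86 to 103 TPM in the knockdown and from 1.59 to 88.6 TPM in the control library, and complex V from 2.31 to 271 TPM and from 2.03 to 264 TPM. With principal transcript lengths, 33 of the 97 genes moved by over 1.5-fold, the most being Ndufb7, and Cox6c ranked 5 in place of 29. The rank correlation of both measures over the 97 genes was 0.908. Across the 93 genes the log2 ratio was weakly related to the deposited length (Spearman's rho -0.25) and hardly to level (0.02). For principal transcript length rho was -0.08, and for GC content it was -0.19. These values are a description over genes that share the same 2 libraries.

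Promoters were read for what these genes share beyond their names. NRF1, GABP (an ETS factor) and YY1 are known regulators of respiratory chain genes. RefSeq promoter windows (GRCm38.p6, 250 bases before to 50 after the start) matched 78 of the 97 genes by symbol. They were searched on both strands for GCATGCG (the core of the NRF1 site), CCGGAAG (ETS) and AAGATGG (YY1). The ETS and YY1 letters can overlap in AAG, and NRF1 matches on the 2 strands can overlap each other. The NRF1 letters stood in 13 of 78 genes (16.7%), against 5.16% of 16353 protein-coding genes. The ETS letters stood in 21 (26.9%), against 13.4%, and the YY1 letters in 11 (14.1%), against 7.30%. GGGCGG, the letters of SP factors, stood in 37 (47.4%), against 51.3%, and CCAAT in 34 (43.6%), against 42.0%. A match is a description of the letters and not a bound site. The windows below show Cox6a1 and Cox8a, among the most abundant genes, Atp5g2 and Ndufs7, the lowest ratios of complexes V and I, Ndufb6, the highest of complex I, and Ndufa4, the partner of Ndufa4l2. Capitals mark the NRF1, ETS and YY1 letters on either strand, and all windows run 5′ to 3′ on the gene's strand.
Cox6a1, chr5:115348909-115349208, minus strand: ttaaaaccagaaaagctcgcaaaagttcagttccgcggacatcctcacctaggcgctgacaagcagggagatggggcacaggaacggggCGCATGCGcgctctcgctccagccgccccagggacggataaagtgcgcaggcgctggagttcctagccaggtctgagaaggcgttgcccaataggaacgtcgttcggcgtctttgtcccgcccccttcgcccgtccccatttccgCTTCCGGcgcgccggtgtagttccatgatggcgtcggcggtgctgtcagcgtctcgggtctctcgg
Cox8a, chr19:7217567-7217866, minus strand: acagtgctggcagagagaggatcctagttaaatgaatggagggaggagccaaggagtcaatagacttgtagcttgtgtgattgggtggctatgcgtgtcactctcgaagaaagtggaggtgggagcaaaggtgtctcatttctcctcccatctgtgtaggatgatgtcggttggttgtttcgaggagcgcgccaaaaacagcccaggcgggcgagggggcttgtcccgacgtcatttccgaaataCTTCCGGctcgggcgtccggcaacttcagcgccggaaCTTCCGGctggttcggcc
Atp5g2, chr15:102670998-102671297, minus strand: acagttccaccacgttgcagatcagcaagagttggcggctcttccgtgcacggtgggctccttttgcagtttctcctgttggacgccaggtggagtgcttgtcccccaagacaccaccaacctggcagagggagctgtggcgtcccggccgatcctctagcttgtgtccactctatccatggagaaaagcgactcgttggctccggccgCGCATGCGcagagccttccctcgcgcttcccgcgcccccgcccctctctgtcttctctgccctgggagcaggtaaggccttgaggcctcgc
Ndufb6, chr4:40279372-40279671, minus strand: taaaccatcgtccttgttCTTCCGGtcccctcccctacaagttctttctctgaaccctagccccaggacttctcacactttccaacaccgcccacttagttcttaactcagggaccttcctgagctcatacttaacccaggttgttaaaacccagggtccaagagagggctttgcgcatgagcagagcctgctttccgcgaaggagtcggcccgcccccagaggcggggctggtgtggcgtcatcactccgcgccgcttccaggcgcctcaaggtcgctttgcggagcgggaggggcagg
Ndufs7, chr10:80249199-80249498, plus strand: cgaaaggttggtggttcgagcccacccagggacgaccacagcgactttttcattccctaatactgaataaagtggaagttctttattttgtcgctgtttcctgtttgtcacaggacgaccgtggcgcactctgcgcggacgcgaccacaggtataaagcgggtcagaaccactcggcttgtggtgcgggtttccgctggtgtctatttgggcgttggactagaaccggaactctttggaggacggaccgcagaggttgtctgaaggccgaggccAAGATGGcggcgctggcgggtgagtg
Ndufa4, chr6:11907401-11907700, minus strand: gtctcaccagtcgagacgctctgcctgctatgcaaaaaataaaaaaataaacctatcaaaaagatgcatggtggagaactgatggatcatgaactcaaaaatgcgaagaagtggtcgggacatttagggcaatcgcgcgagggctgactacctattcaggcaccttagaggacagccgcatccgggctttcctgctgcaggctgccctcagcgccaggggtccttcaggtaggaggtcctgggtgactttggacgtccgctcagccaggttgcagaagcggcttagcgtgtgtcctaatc
Cox6a1 holds the NRF1 letters from base -161 and the ETS letters from base -16, counted from the start site. Cox8a holds the ETS letters at -5 and 33. In Atp5g2, the gene with the lowest ratio, the NRF1 letters begin at -41. Ndufb6 has the ETS letters at -232, Ndufs7 has the YY1 letters at 25, and Ndufa4 has none of the 3.

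The transcripts of the factors behind these letters differed by less than 2-fold. Nrf1 had 1456 against 1343 counts (log2 ratio 0.03), Gabpa 4157 against 3402 (0.20), and Yy1 1469 against 1776 (-0.36). Tfam, which packages mitochondrial DNA and takes part in starting its transcription, had 1546 against 1230 counts (0.24). Of 18 regulators of mitochondrial biogenesis, 17 entered, with a median of 0.24, and 1 was called, Ppargc1b, a coactivator, with 139 against 63 counts and a ratio of 2.08 (1.53 to 2.84). Ppargc1a had 0 counts in both libraries.

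Other mitochondrial genes had medians on the same side of that of all genes, 0.02. Subunits and partners outside the naming rule (Cyc1, Cycs, Usmg5 and Atpif1) had a median of 0.26 and none was called. Usmg5, a small ATP synthase subunit, had 3043 against 1974 counts and a ratio of 1.45 (1.37 to 1.54). Of 39 other assembly factor genes, 28 were above 0, with a median of 0.16. Among these 1 was called, Lyrm7, a complex III assembly factor, with 64 against 16 counts and a ratio of 3.76 (2.15 to 6.98). For 18 genes of the tricarboxylic acid cycle and pyruvate dehydrogenase the median was 0.21 with none called. Cs, citrate synthase, had 4043 against 3953 counts and a ratio of 0.963 (0.921 to 1.01). The 78 mitochondrial ribosomal protein genes had a median of 0.17 with none called. The 13 protein-coding genes of the mitochondrial genome had a median of 0.37, all above 0 and none called, with mt-Co1 at 291576 against 239580 counts. Centred by GC content, the median of these 13 genes was 0.18, and that of the nuclear respiratory chain genes 0.27, so their order depends on the setting. Whether these medians differ was not tested.

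**Figure D5:**
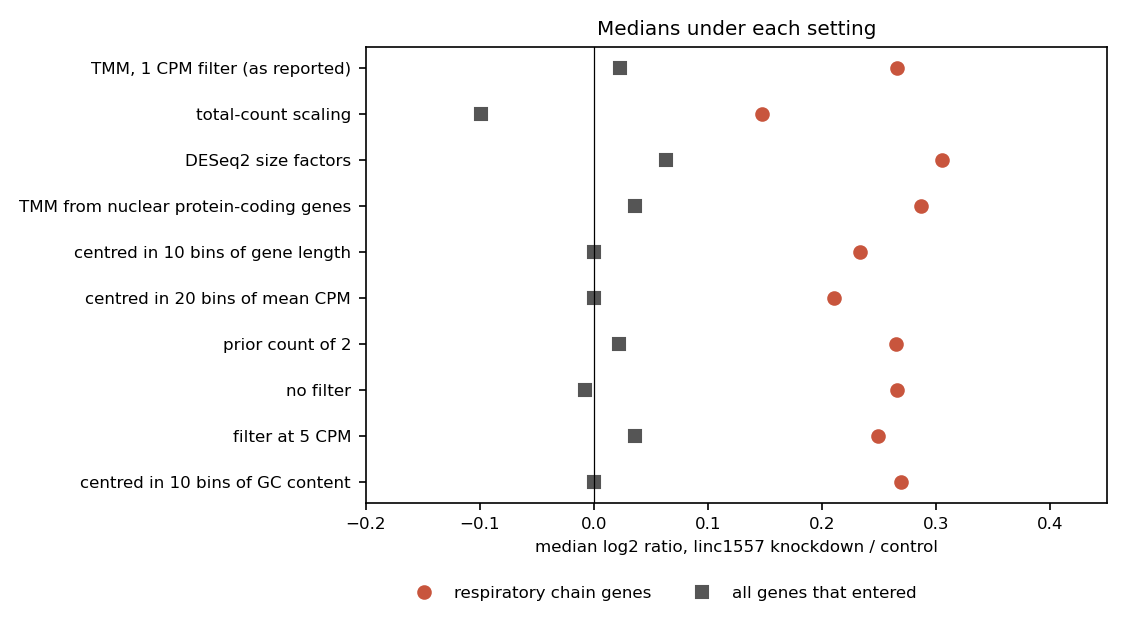
Median log2 ratio, linc1557 knockdown over control, of the respiratory chain genes (circles) and of all genes that entered (squares) under the reported setting and each other scaling, centring or filter. The circles lie between 0.15 and 0.31 and to the right of the square in each row.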

How the data were processed

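For each gene the authors deposited a raw read count in each of 2 libraries and a length in bases (an other, unscaled column). The submitters' processing notes name DESeq, featureCounts, HISAT2 and Trim Galore as tools and GRCm38 and mm10 as builds; their versions, annotation release and strand setting were not stated, so reads of a gene and an opposite-strand partner cannot be told apart (32 of the 97 genes share exon bases with another gene). GENCODE M21 (GRCm38) matched 46488 of 46983 identifiers. Unmatched identifiers held 0.119% of the knockdown and 0.128% of the control counts. TMM factors, 0.960 (knockdown) and 1.04 (control), were computed with R 4.3.3 and edgeR 4.0.16. Ratios carry no pseudocount, and a count of 0 is set to a floor of 3. Exact 95% intervals cover counting error only, since duplicate reads are not separate molecules. TPM used the deposited length over all genes. Ratios, intervals and figures were made with matplotlib 3.10.9, scipy 1.17.1, pandas 2.3.3 and numpy 2.4.6 under Python 3.11.15. The rule for calls was checked only on simulated Poisson counts. These hold no variation between clones or libraries, so the check cannot show how the calls fare under it. The genes and lists were chosen with earlier results of these data known. Named are all called genes, the 3 highest by TPM and the extremes of log2 ratio in each complex, complex II, isoform families and subunit c; others named were chosen after their values were seen, as were the role groups, the hypoxia list and the 7-letter NRF1 core. Alternatives were size factors from DESeq2 1.42.0, scaling by total counts, TMM from nuclear protein-coding genes, centring in bins of length, expression level or GC content, a prior count of 2, no filter, a filter at 5 CPM, a fold of 1.5, structural subunits alone, complexes by symbol prefix and, for levels, principal transcript lengths (APPRIS) or nuclear protein-coding genes alone; GC centring and principal transcript lengths were chosen after seeing the data. Values of some single genes are not reported here.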

Additional observations from a re-analysis of the deposited data

How the results depend on the processing

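No paired analysis was possible because each group has 1 library, and for the same reason no replicate could be left out. No complex median changed sign under any setting run, but that of the complex I core subunits, -0.03, was 0.01 with DESeq2 size factors. The number of genes called higher was 2 in every scaling and centring, 1 with a filter at 5 CPM, which removes Cox4i2, and 10 with a fold threshold of 1.5; none was called lower in any. Genes at 1.5-fold or more in either direction numbered 10, and 5 with total-count scaling, where Atp5g2 was among them as lower. They numbered 15 with DESeq2 size factors, 14 with TMM from nuclear protein-coding genes and 7 centred by gene length. Total-count scaling also gave medians of 0.13 for complex I, 0.26 for complex II, 0.094 for complex III, 0.23 for complex IV, 0.12 for complex V and 0.22 for the assembly factors, lower by the shift of all genes. The summed counts of complex V gave 0.13 in place of the median of 0.24, since Atp5b carries much of its sum. The summed TPM of the 97 genes was 5066 for knockdown and 4672 for control cells. It was 22847 and 19019 over nuclear protein-coding genes alone, and 6922 and 6471 with principal transcript lengths. Of 342 values of single named genes under other settings, 302 stayed within their counting interval, 39 moved outside it, 21 of them with total-count scaling, and 1, Cox4i2 with the 5 CPM filter, lost its call. Of the 302, 38 with no filter and 37 with the 5 CPM filter could not move, since a filter leaves the ratio as it is. Centring also left Cox6a2 and Cox7b2, which did not enter, unchanged. Depth limits Cox4i2 most among the called genes, with 29 against 12 counts.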
